A study of Mus musculus with 38 samples.

Results

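The genes of the unfolded protein response and of protein folding in the endoplasmic reticulum (ER) were followed in cloned mouse CD8 T cells, at rest and after stimulation of the T cell receptor. The set was a list of 37 gene symbols: ER chaperones and their co-chaperones, the sensors of the response, components of ER-associated degradation and of the translocation channel. All 37 had a probe set with a single gene symbol, among 19938 genes with a probe set on the array. Vimp is the older symbol of Selenos and was matched through its gene number. The rule that defines the list names gene symbols and sets no threshold on a measured value.

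Secreted and membrane proteins enter the ER through the Sec61 channel and fold there with the help of the Hsp70 chaperone BiP (Hspa5), the calnexin and calreticulin lectin chaperones and the protein disulfide isomerases. When unfolded proteins accumulate, the membrane sensors IRE1 (Ern1), PERK (Eif2ak3) and ATF6 are activated: IRE1 splices the Xbp1 messenger RNA, PERK phosphorylates the translation factor eIF2alpha, and ATF6 is cleaved to a transcription factor. Spliced XBP1 and cleaved ATF6 induce chaperone and degradation genes, and lymphocytes use this response when they begin to secrete large amounts of protein.

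The study compared T cell clones of 3 kinds in 2 states, with 38 arrays in 10 groups. The IL13+ clones, sAg1 and sAg3, carry the phenotype label CD8IL13+ and are called CD8γ13 in the design text. The IL13-negative clones, 8uvmo-2 and 8uvmo-3, are labelled CD8IL13- and called Tc1 there; the remaining clone, CD8bm1, is a conventional alloreactive CD8 clone labelled allo CD8. Cells were either dormant or activated for 14 h on plates coated with the anti-CD3 antibody 145-2c11 at 0.5 ug/ml, and all groups shared the same RPMI 1640 medium with FBS. No genotype, strain, sex or age is stated for the mice. Dormant sAg1 and dormant sAg3 had 3 arrays each and every other group had 4, which gave 6 dormant and 8 activated IL13+ arrays, 8 and 8 IL13-negative arrays, and 4 and 4 CD8bm1 arrays. Each phenotype rests on 1 or 2 clones, so a difference between phenotypes cannot be told apart from a difference between these clones. Since no label says that the arrays of a group came from separate cultures, p-values measure the spread among these arrays only, and that spread may be technical.

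All values are log2 probe set levels. At least 7 of the 8 CD8 T cell markers on the list stood at a level of 7 or more in every group, against at most 1 of 7 B and plasma cell markers, 2 of 10 macrophage markers and 4 of 7 stromal markers. Of the macrophage markers, Cd68 was at 7 or more in every group and lower after activation in each clone, Lyz2 had a mean of 9.26 in dormant sAg1 against at most 6.35 in every other group, and Itgam had a mean of 9.99 in dormant 8uvmo-2 and 7.57 in dormant 8uvmo-3 against at most 6.46 elsewhere. Csf1r, Emr1, Cd14, Mrc1, C1qa and C1qb had group means near background in all groups, and the mean of the whole list per array was 5.69 to 6.62 at rest and 6.01 to 6.90 after activation. Activated sAg3 replicate 1 stood apart from its group, with Lyz2 at 8.40 (others 5.36 to 5.96), C1qb at 7.02 (others 6.12 to 6.26) and Itgam at 6.83 (others 5.76 to 5.78). The part of these markers in the dormant and activation differences was not tested. Arrays of the same group correlated at 0.986 to 0.998 over all named probe sets. The median probe set stood at 6.58 to 6.70 on dormant arrays and at 7.01 to 7.09 on activated arrays, and this shift depended on level: the median change with activation was 0.51 for probe sets with a mean under 7, and -0.12 for those at 11 or above. The shift went with state in every clone. In the activation comparison, a difference in how the arrays of the 2 states were processed therefore cannot be told apart from an effect of anti-CD3. Of the members, 18 had a mean of at least 11, 15 lay between 9 and 11, 3 lay between 7 and 9, and Derl3 was under 7, near background. A gene is therefore called higher or lower here only where the limma test gave an adjusted p under 0.05 in 1 direction on the deposited values, after centring each array on its median and after quantile normalization, and where the separate clones bore out the direction under each scaling. For activation that meant the same sign in all 5 clones, and for the other comparisons clone values of the 2 sides that did not overlap. Among the dormant 8uvmo-2 arrays, replicates 1 and 3 stood apart from 2 and 4, for example with Eif2ak3 at 9.28 and 9.31 against 9.97 and 10.01; the calls that change when either pair is used alone are given with the genes. The arrays measured bulk RNA, so a change in every cell and a change in a fraction of the cells cannot be told apart.

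The promoters of several of these genes carry the ER stress response element (ERSE), which ATF6 binds together with the factor NF-Y. Of the 37 genes, 30 had a 300-base promoter window in the RefSeq table (mouse build GRCm38.p6), from 250 bases before to 50 bases after the annotated start: all but Hyou1, Manf, Clgn, Atf6, Ppp1r15b, Derl1 and Sec61a1. The ERSE, searched on both strands as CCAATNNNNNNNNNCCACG, was found for 9 of the 30 genes (30.0%) and for 37 of all 27025 genes with a window (0.137%). The shorter ERSE-II, ATTGGNCCACG, was found for 2 of 30 genes (6.67%) against 12 of 27025 genes (0.044%). The core of the XBP1 element, TGACGTGG, was found for 0 of 30 genes and for 193 of 27025 genes (0.714%). Stretches are shown for the 7 genes with an ERSE that responded less to activation in the IL13+ than in the IL13-negative clones, and for Herpud1, which carries an ERSE-II and showed the largest such difference. They are written on the strand of the gene, all lie upstream of its start, and capitals mark the conserved ends of the element. On the opposite strand the element reads CGTGG and then ATTGG, as in Creld2 and Derl3, and Hsp90b1 holds 1 match on each strand.
Hspa5, chr2:34772010-34772058, plus strand: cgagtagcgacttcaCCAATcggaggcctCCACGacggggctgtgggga
Hsp90b1, chr10:86705518-86705671, minus strand: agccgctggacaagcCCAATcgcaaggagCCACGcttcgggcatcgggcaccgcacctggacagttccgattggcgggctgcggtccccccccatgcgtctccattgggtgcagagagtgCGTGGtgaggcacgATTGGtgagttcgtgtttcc
Creld2, chr15:88819505-88819553, plus strand: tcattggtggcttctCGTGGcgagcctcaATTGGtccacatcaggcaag
Canx, chr11:50325785-50325833, minus strand: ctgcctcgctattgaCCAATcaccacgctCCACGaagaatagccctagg
Pdia6, chr12:17266476-17266524, plus strand: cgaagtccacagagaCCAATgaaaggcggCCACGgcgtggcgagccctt
Syvn1, chr19:6046517-6046565, plus strand: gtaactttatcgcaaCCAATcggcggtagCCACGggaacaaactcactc
Derl3, chr10:75893227-75893275, plus strand: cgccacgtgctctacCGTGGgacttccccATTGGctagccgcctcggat
Herpud1, chr8:94386362-94386402, plus strand: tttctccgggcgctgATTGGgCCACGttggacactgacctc
A match describes letters in the window and does not show that the site was bound.

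**Figure D1:**
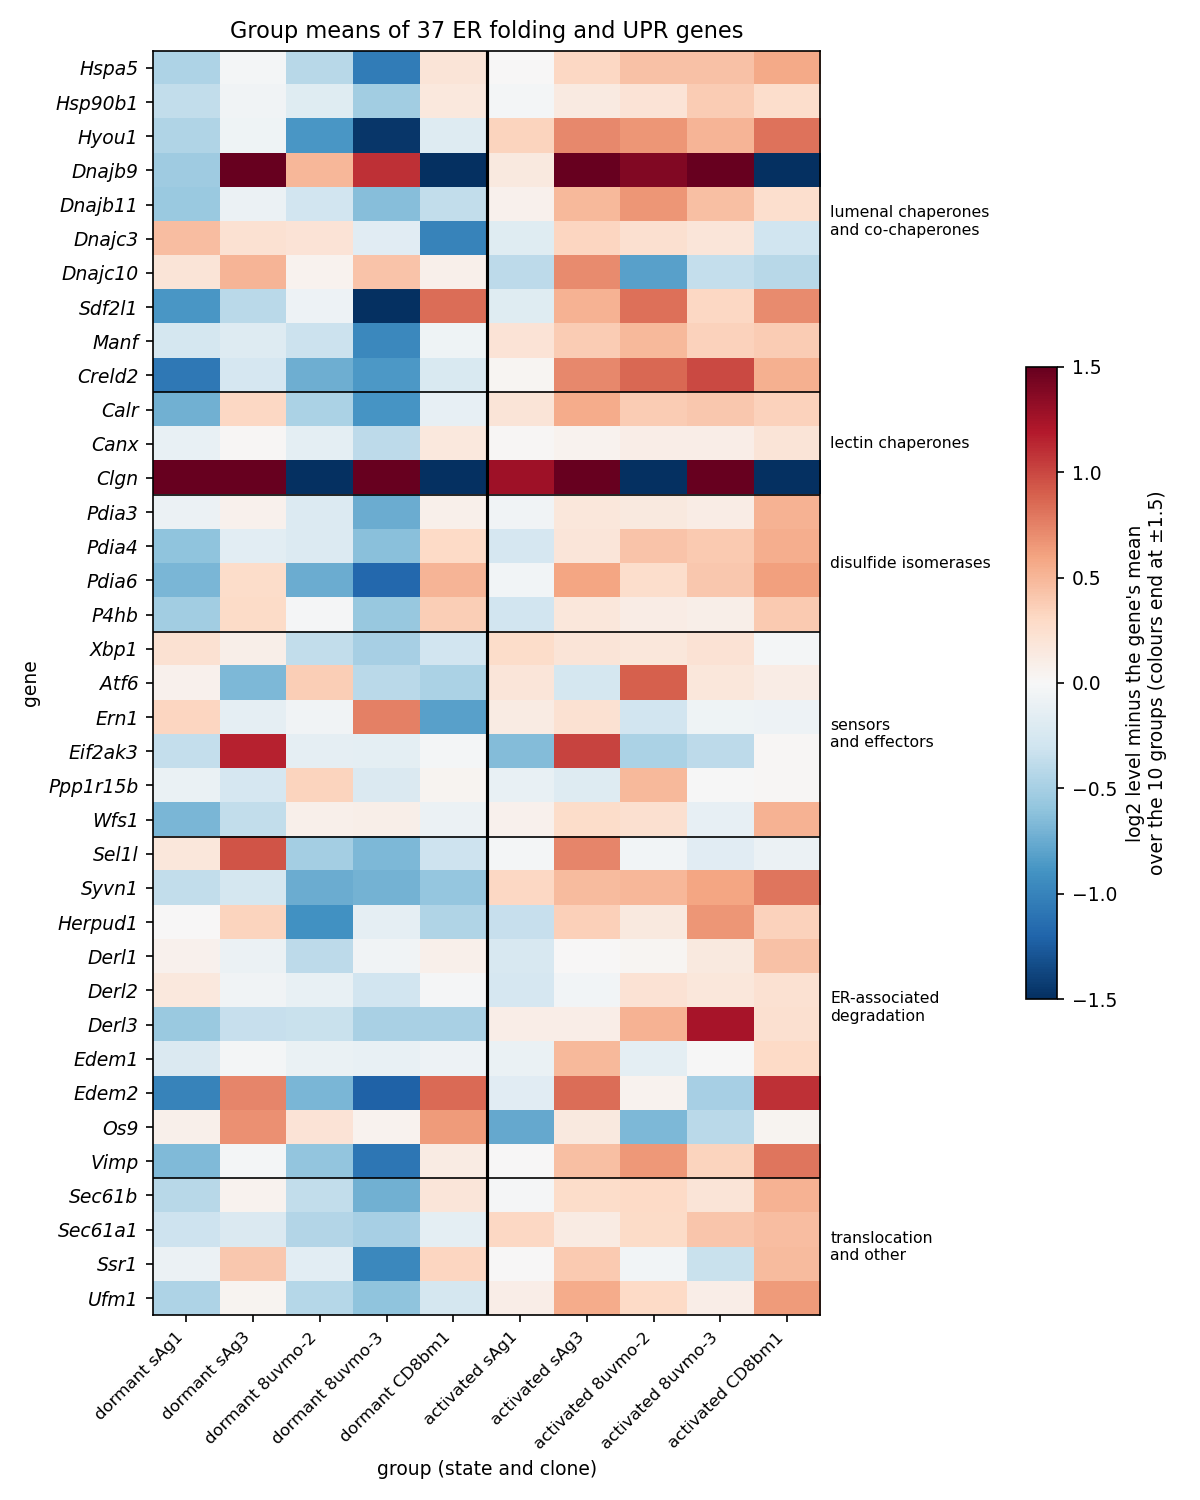
Mean log2 level of the 37 genes (vertical axis, ordered by role) in the 10 groups of clone and state (horizontal axis), each shown relative to the mean of that gene over the groups. Clgn and Dnajb9 differ between clones far more than between states, and dormant 8uvmo-3 had the lowest dormant mean for 22 genes, a count without a background share.

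Across the clones the median level of the 37 genes was 10.66 ± 0.07 (SD, n = 3) in dormant sAg1, 11.19 ± 0.09 (n = 3) in dormant sAg3, 10.46 ± 0.07 (n = 4) in dormant 8uvmo-2, 10.43 ± 0.07 (n = 4) in dormant 8uvmo-3 and 10.79 ± 0.12 (n = 4) in dormant CD8bm1. After activation it was 10.67 ± 0.05, 11.52 ± 0.03, 11.09 ± 0.09, 11.01 ± 0.11 and 11.20 ± 0.12 in the same order (SD, n = 4 each). These levels include the general shift of the activated arrays. Relative to the array median, the members stood 4.03 higher at rest and 3.63 after activation in sAg1, 4.53 and 4.44 in sAg3, 4.14 and 4.15 in CD8bm1, 3.80 and 4.04 in 8uvmo-2, and 3.75 and 3.95 in 8uvmo-3. On that scale only the IL13-negative clones were higher after activation by more than 0.1. Among dormant groups the highest mean was that of CD8bm1 for 15 genes and that of sAg3 for 14, and the lowest was that of 8uvmo-3 for 22. Among activated groups the highest mean was that of CD8bm1 for 17 genes and that of sAg3 for 10, and sAg1 had the lowest for 22. No share of all probe sets is given for these counts of extreme clones, so they describe the members only.

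Activation raised 8 of the 37 genes in all 5 clones and lowered 1. The risers were the BiP nucleotide exchange factor Hyou1, the BiP co-chaperones Dnajb9 and Dnajb11, the ER stress-inducible proteins Creld2 and Manf, the degradation components Syvn1 and Vimp, and the ubiquitin-like modifier Ufm1. Os9, a lectin that delivers misfolded glycoproteins for degradation, fell by 0.66 ± 0.049 on the log2 scale (SE; adjusted p = 1.35e-14). Over all 23410 probe sets tested, activation raised 21.6% and lowered 11.5% by the same rule, so the share of members called higher equals the background. The members are mostly well expressed, and of the 5632 probe sets with a mean of at least 9, 6.05% rose and 26% fell. The median difference over the members was 0.44 on deposited values, 0.04 after centring and 0.47 after quantile normalization, beside 0.35, -0.05 and 0.02 for all probe sets. The count moved with the scaling: 21 members were higher and 1 lower on deposited values alone (57.9% and 12.8% of all probe sets), 9 and 5 on centred values alone (28.6% and 35.4%), and 21 and 2 on quantile values alone (31.4% and 26.3%). By role, 5 of 10 lumenal chaperones and co-chaperones, 2 of 10 degradation genes and 1 of 4 translocation and other genes were called higher, and none of the 3 lectin chaperones, 4 disulfide isomerases or 6 sensors and effectors.

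Creld2 ranged from 9.97 to 11.26 (median 10.54) over the 18 dormant arrays and from 11.15 to 12.50 (median 11.89) over the 20 activated arrays. The ranges overlapped only between dormant CD8bm1 and activated sAg1 arrays, and the difference was 1.26 ± 0.046 (adjusted p = 7.45e-23). Hyou1 stood between 9.66 and 11.14 at rest and between 11.42 and 12.01 after activation, with no overlap, a difference of 1.22 ± 0.034 (adjusted p = 4.75e-26). Syvn1, the ubiquitin ligase HRD1 of ER-associated degradation, was at 8.60 to 9.21 on dormant and 9.56 to 10.30 on activated arrays, again without overlap, and rose by 1.07 ± 0.04 (adjusted p = 1.47e-22). After centring, the differences of these genes were 0.85, 0.82 and 0.67. Dnajb9 rose by 0.87 ± 0.075, with CD8bm1 near background in both states and the call lost without activated sAg3 replicate 3, Vimp by 0.90 ± 0.042, Dnajb11 by 0.77 ± 0.04, Manf by 0.73 ± 0.032 (not called without dormant CD8bm1 replicate 1) and Ufm1 by 0.68 ± 0.03 (0.28 and not called as the mean of its 2 probe sets). Os9 lay at 11.25 to 12.21 at rest and at 10.46 to 11.64 after activation, with overlapping ranges across clones. Hspa5, the BiP gene, differed by 0.70 ± 0.022 (adjusted p = 7.91e-25) and had a positive effect in each clone on deposited values, from 0.33 in sAg3 to 1.47 in 8uvmo-3. It was not called, because the sign was not the same in all clones after centring, where the difference was 0.30.

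**Figure D2:**
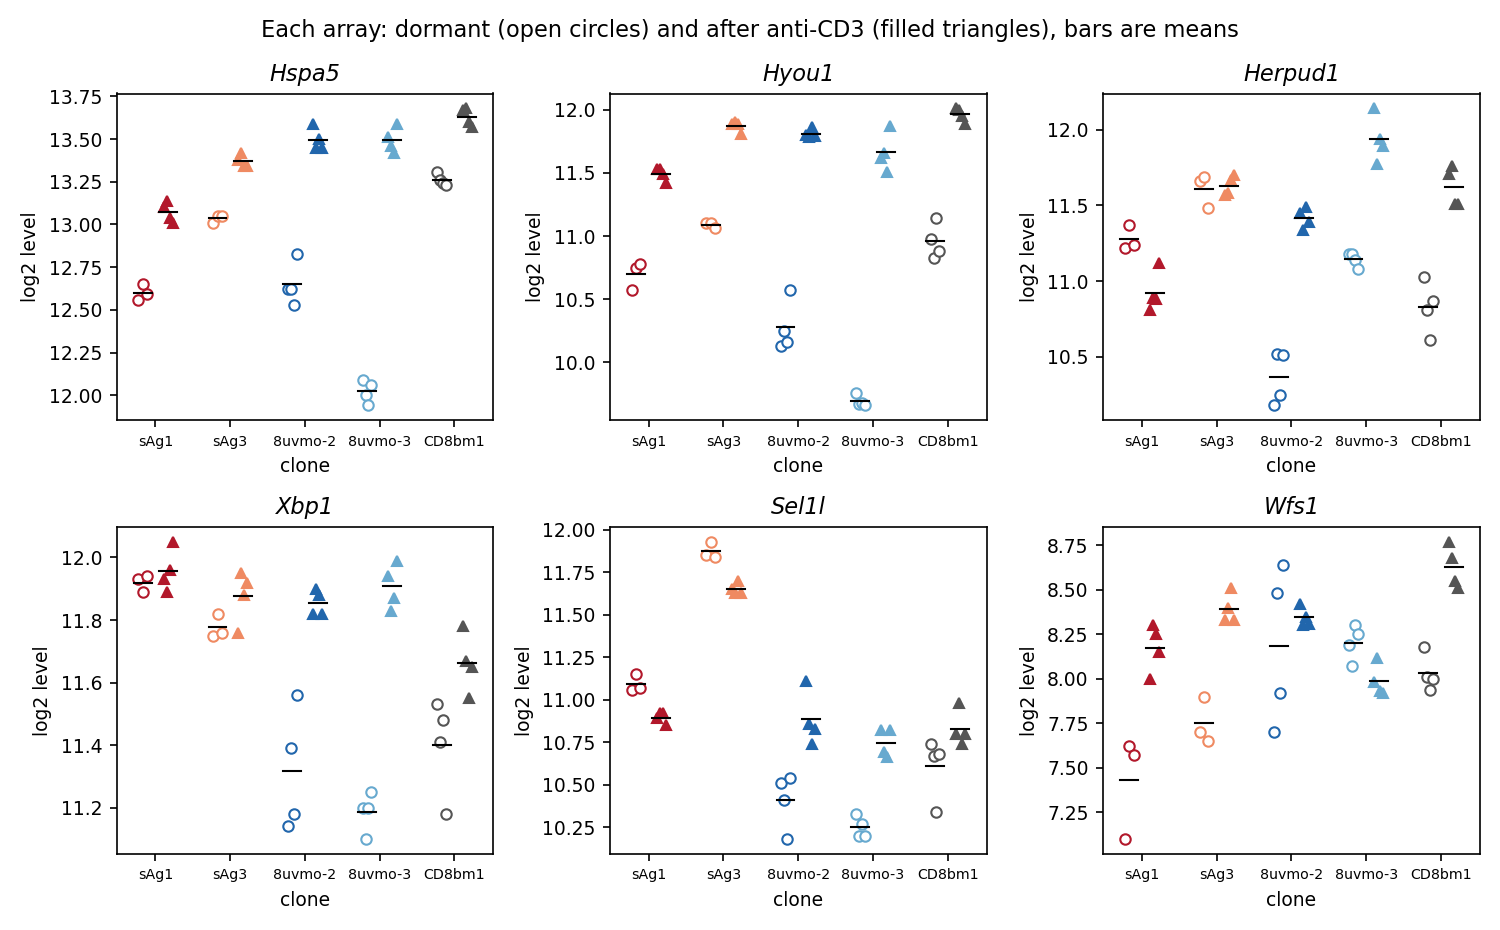
Log2 level (vertical axis) of Hspa5, Hyou1, Herpud1, Xbp1, Sel1l and Wfs1 on each array, by clone (horizontal axis); open circles are dormant arrays, filled triangles activated arrays, and bars group means. Hyou1 separates the states in every clone, while Herpud1 and Sel1l are higher after activation in 8uvmo-2, 8uvmo-3 and CD8bm1 but not in sAg1 or sAg3.

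The messenger RNAs of the sensors were not called in the activation comparison. Ern1 differed by -0.03 ± 0.048 (adjusted p = 0.565) and Eif2ak3 by -0.19 ± 0.053 (adjusted p = 0.00132). Atf6 differed by 0.44 ± 0.042 and Xbp1, the transcription factor downstream of IRE1, by 0.33 ± 0.032 on deposited values, but by 0.04 and -0.07 after centring. A summarized probe set does not tell spliced from unspliced Xbp1, and neither phosphorylation nor ATF6 cleavage was measured.

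In the dormant state 13 of the 37 genes were called higher in the IL13+ than in the IL13-negative clones, and 1 was called lower. The background was 9.41% higher and 7.8% lower over all probe sets, and among those with a mean of at least 9 the shares were 14.4% and 11.4%. The median difference of the members was 0.25, and 0.03 for all probe sets. The higher genes spanned the roles: 4 of 10 degradation genes (Sel1l, Herpud1, Syvn1 and Derl2), 3 of 10 lumenal chaperones (Hyou1, Manf and Dnajc3), 2 of 4 disulfide isomerases (Pdia6 and Pdia3), 2 of 4 translocation genes (Ssr1 and Sec61a1), Canx among the lectins and Xbp1 among the sensors and effectors. For Pdia3, Xbp1, Sel1l, Syvn1, Herpud1, Sec61a1 and Ssr1, every dormant IL13+ array lay above every dormant IL13-negative array, and the arrays of the other 30 members overlapped. The share of all probe sets that separate in this way is not given, so the count describes these genes only. Wfs1, an ER membrane protein, was the gene called lower. The count of higher genes depended on the clones: it was 28 without sAg1, 25 without 8uvmo-2, 14 without sAg3 and 12 without 8uvmo-3. Leaving out a clone also loosens the condition on clones for every probe set. The background shares above therefore do not apply to these counts, and none is given for them. Without 8uvmo-3 the differences of Manf, Dnajc3 and Canx were 0.09, 0.15 and 0.10 and no longer called.

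Sel1l, the scaffold partner of the HRD1 ligase, was at 11.06, 11.15 and 11.07 in dormant sAg1 and at 11.85, 11.93 and 11.84 in dormant sAg3. It was at 10.51, 10.41, 10.18 and 10.54 in dormant 8uvmo-2 and at 10.33, 10.20, 10.27 and 10.20 in dormant 8uvmo-3. Both IL13+ clones were thus above both IL13-negative clones, by 1.15 ± 0.059 (SE) on average (adjusted p = 5.88e-18). Hyou1 ranged from 10.57 to 11.10 (median 10.92) in IL13+ and from 9.66 to 10.57 (median 9.95) in IL13-negative arrays, a difference of 0.91 ± 0.056 (adjusted p = 1.16e-15). Pdia6, a disulfide isomerase, was at 11.50, 11.78 and 11.67 in sAg1, at 12.60, 12.62 and 12.60 in sAg3, and between 11.10 and 11.89 in the IL13-negative arrays. Its ranges overlapped, with sAg3 alone clearly above the rest; the difference was 0.75 ± 0.057, and the call ended when only dormant 8uvmo-2 arrays 2 and 4 were used, at 0.68, or without dormant sAg1 replicate 2, at 0.72. Ssr1, a subunit of the translocon-associated protein complex, differed by 0.72 ± 0.035 (adjusted p = 2.00e-18). Xbp1 lay between 11.75 and 11.94 in IL13+ arrays and between 11.10 and 11.56 in IL13-negative arrays, with no overlap and a difference of 0.60 ± 0.053 (adjusted p = 2.02e-11). Wfs1 was lower by -0.60 ± 0.098 (adjusted p = 4.72e-06), at 7.10 to 7.90 against 7.70 to 8.64. With only dormant 8uvmo-2 arrays 1 and 3, which were at 7.70 and 7.92, the Wfs1 difference was -0.42 and was not called, nor were those of Dnajc3 at 0.30 and Derl2 at 0.17. Eif2ak3 differed by 0.54 ± 0.088, with sAg3 high and sAg1 low, and was not called.

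After activation the balance lay the other way. Activated IL13+ clones had 3 genes called higher and 7 called lower than activated IL13-negative clones (8.11% and 18.9%). The shares were 7.65% and 6.54% of all probe sets, and 12.3% and 11.6% of those with a mean of at least 9. The median difference of the members was -0.13, beside 0.02 for all probe sets. The lower genes were the chaperones Hspa5, Hsp90b1 and Creld2, the disulfide isomerase Pdia4, the degradation channel genes Derl2 and Derl3, and Ppp1r15b, which encodes a regulatory subunit of the eIF2alpha phosphatase. The higher genes were Sel1l, Ssr1 and the sensor gene Ern1. Without sAg3, 21 genes were called lower and 2 higher, and without sAg1, 8 were lower and 12 higher. The condition on clones is looser in these fits, and no background share is given for them.

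Derl3 was at 6.48 to 6.81 in the 8 activated IL13+ arrays, near background, and at 6.93 to 7.92 (median 7.36) in the 8 IL13-negative arrays. The ranges did not overlap, and the difference was -0.78 ± 0.062 (adjusted p = 1.67e-12). Creld2 ranged from 11.15 to 12.02 (median 11.61) against 11.87 to 12.50 (median 12.07), a difference of -0.55 ± 0.071 (adjusted p = 7.36e-08) that was -0.21 and not called without sAg1. Pdia4 ranged from 11.58 to 12.26 (median 11.97) against 12.27 to 12.71 (median 12.37), with no overlap and a difference of -0.44 ± 0.051 (adjusted p = 8.46e-09). Hspa5 lay between 13.01 and 13.42 in IL13+ arrays and between 13.42 and 13.59 in IL13-negative arrays, a small difference of -0.27 ± 0.033 (adjusted p = 1.97e-08). Among the higher genes, Ern1 ranged from 10.20 to 10.49 against 9.76 to 10.27 and differed by 0.36 ± 0.073 (adjusted p = 1.86e-04), and Ssr1 differed by 0.38 ± 0.032 (adjusted p = 7.22e-12). Sel1l differed by 0.46 ± 0.054 (adjusted p = 1.49e-08), but the sAg1 mean of 10.89 was barely above the 8uvmo-2 mean of 10.88. Without the sAg3 clone the Sel1l difference was 0.08 (adjusted p = 0.556), and without activated sAg1 replicate 3 or any of activated 8uvmo-2 replicates 2, 3 and 4 the call ended, as it did with only probe sets of a mean of at least 7.

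**Figure D3:**
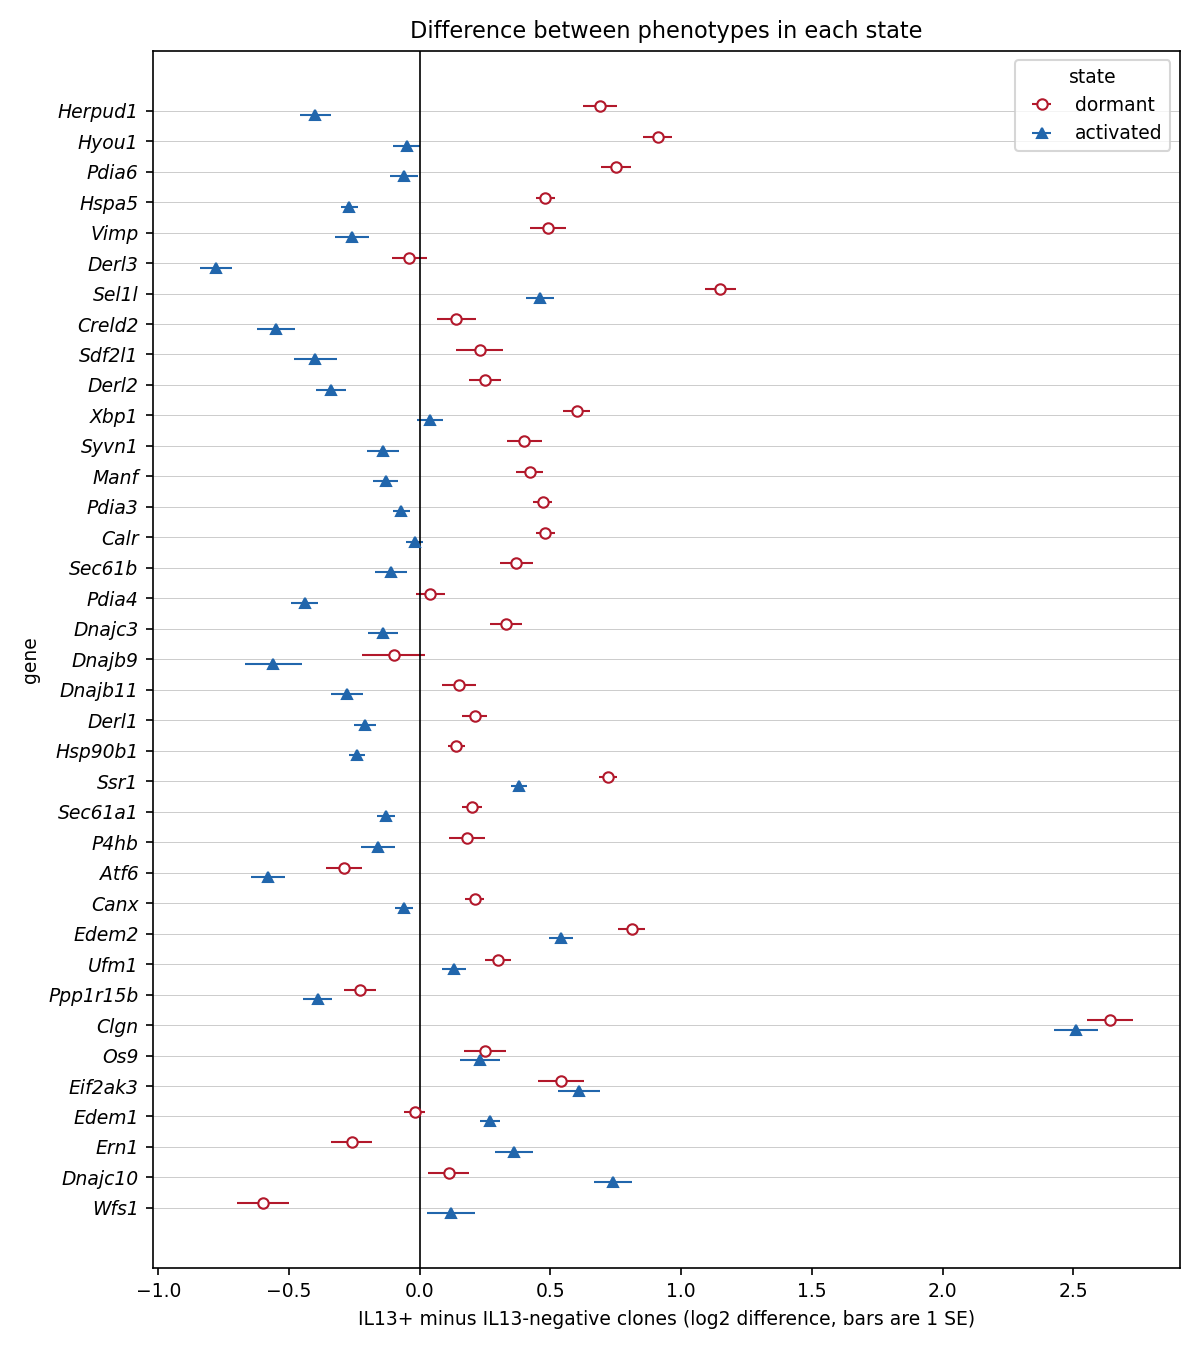
Difference in log2 level between IL13+ and IL13-negative clones (horizontal axis) for each of the 37 genes (vertical axis), with open circles for dormant and triangles for activated cells; bars are 1 SE. Dormant differences were positive for 30 genes, and activated differences for 12. Of all 23410 probe sets, 13638 had a positive dormant and 13177 a positive activated difference.

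The response to activation itself was tested as the activated minus dormant difference in IL13+ clones minus that in IL13-negative clones. It was smaller in the IL13+ clones for 22 genes and larger for 2, against 5.45% and 5.25% of all probe sets and 11.2% and 7.72% of those with a mean of at least 9. The median of the members was -0.45, beside -0.01 for all probe sets. The smaller responses comprised 7 of 10 degradation genes, 6 of 10 lumenal chaperones, 3 of 4 disulfide isomerases, 3 of 4 translocation and other genes, 2 of 6 sensors and effectors (Xbp1 and Atf6) and 1 of 3 lectins (Canx). The larger ones were Wfs1 and the ER reductase Dnajc10. This test uses the same arrays as the 2 comparisons above: 12 of the 13 genes called higher at rest and 6 of the 7 called lower after activation are among the 22. A further 5 of the 22 were called in neither state.

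Herpud1, an ER stress-induced membrane protein that acts in degradation, was at 11.22, 11.37 and 11.24 in dormant sAg1 and at 10.81, 10.89, 10.88 and 11.12 after activation. In sAg3 it was at 11.66, 11.69 and 11.48 at rest and at 11.57, 11.58, 11.67 and 11.70 after activation. The arrays of both IL13+ clones therefore showed no rise, with mean changes of -0.35 and 0.02. In 8uvmo-2 it went from 10.18, 10.52, 10.25 and 10.51 to 11.45, 11.34, 11.49 and 11.39, and in 8uvmo-3 from 11.18, 11.18, 11.14 and 11.08 to 12.14, 11.77, 11.94 and 11.89. The mean changes there were 1.05 and 0.79, and the difference in activation was -1.09 ± 0.089 (SE; adjusted p = 1.59e-11).

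Hyou1 rose in every clone, by 0.79 in sAg1 and 0.79 in sAg3 against 1.53 in 8uvmo-2 and 1.97 in 8uvmo-3, a difference of -0.96 ± 0.076 (adjusted p = 8.21e-12). Hspa5 changed by 0.47 and 0.33 in the IL13+ clones and by 0.85 and 1.47 in the IL13-negative clones, a difference of -0.76 ± 0.049 (adjusted p = 5.12e-14). Median levels at rest were lower in the IL13-negative arrays for both genes (12.31 against 12.83 for Hspa5, 9.95 against 10.92 for Hyou1). After activation they were higher (13.48 against 13.24, and 11.79 against 11.67). Pdia6 differed by -0.81 ± 0.078 (adjusted p = 8.05e-10) and Vimp, which recruits the p97 ATPase to the degradation channel, by -0.75 ± 0.094 (adjusted p = 1.78e-07). For Xbp1 the changes were 0.04 and 0.10 against 0.54 and 0.72, a difference of -0.56 ± 0.073 (adjusted p = 3.15e-07). Its activated levels in the IL13+ (11.76 to 12.05) and IL13-negative arrays (11.82 to 11.99) overlapped fully. Sel1l changed by -0.20 and -0.22 against 0.48 and 0.50 (difference -0.70 ± 0.08, adjusted p = 2.93e-08). Wfs1 went the other way, with 0.75 and 0.64 against 0.16 and -0.22, a difference of 0.72 ± 0.13 (adjusted p = 9.99e-05), which was 0.53 and not called without 8uvmo-3. Dnajc10 changed by -0.59 and 0.20 against -0.87 and -0.79, a difference of 0.63 ± 0.11 (adjusted p = 2.34e-05) that was 0.23 and not called without sAg3. The differences of the other 15 genes with a smaller response ran from -0.74 for Derl3 to -0.28 for Canx and Atf6, and Atf6, at an adjusted p of 0.0295, lost its call with only dormant 8uvmo-2 arrays 1 and 3 (-0.26, adjusted p = 0.0609) and without any of 5 single arrays: dormant sAg1 replicate 2, dormant sAg3 replicate 1, dormant 8uvmo-2 replicate 3, activated 8uvmo-2 replicate 2 or activated 8uvmo-3 replicate 4. Of the sensors, Eif2ak3 differed by 0.07 ± 0.12 (adjusted p = 0.79) and Ern1 by 0.61 ± 0.11 (adjusted p = 4.92e-05); neither was called, Ern1 because its clone effects overlapped under at least 1 scaling.

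**Figure D4:**
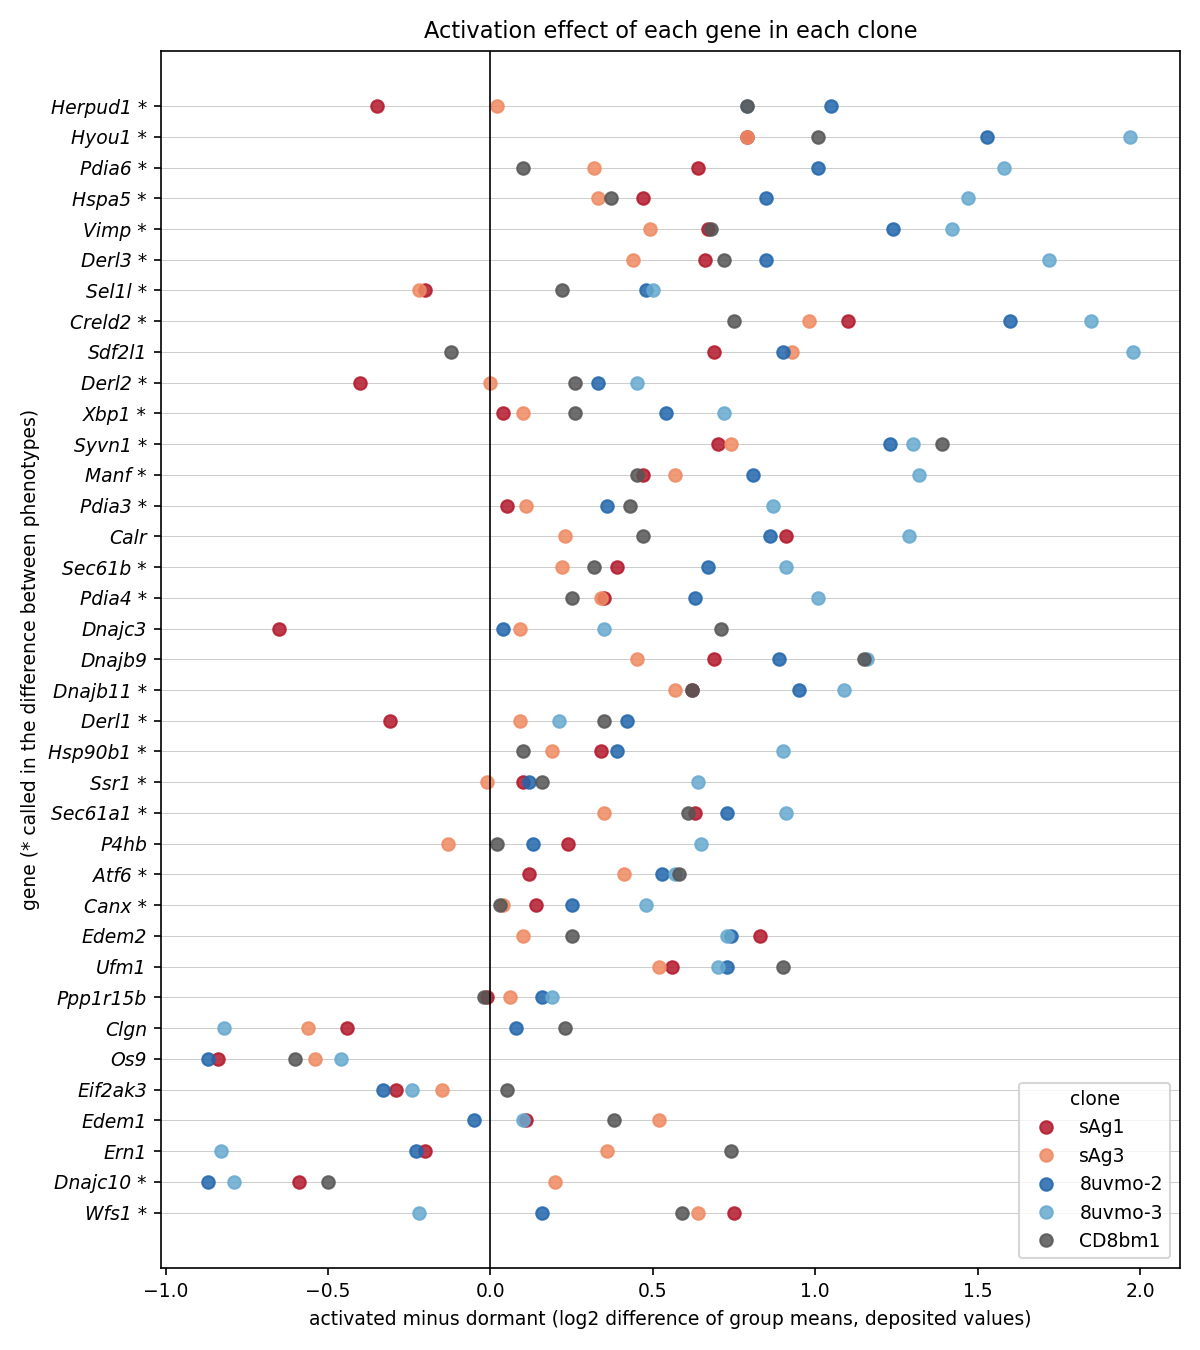
Change in log2 level with activation (deposited values) in each of the 5 clones for the 37 genes; an asterisk marks the 24 genes called in the difference in activation between IL13+ and IL13-negative clones. The clone 8uvmo-3 had the largest change for 24 genes, a count without a background share.

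The median change of the members with activation was 0.34 for sAg1, 0.23 for sAg3, 0.37 for CD8bm1, 0.54 for 8uvmo-2 and 0.73 for 8uvmo-3 on deposited values. The corresponding medians of all probe sets were 0.33 to 0.38. Those of probe sets with a mean of at least 9, the level of most members, were -0.01, -0.07, -0.07, -0.04 and -0.03 in the same order. After centring the member medians were -0.07, -0.18, -0.04, 0.14 and 0.34 in the same order, and after quantile normalization 0.21, 0.36, 0.41, 0.56 and 0.74. The IL13-negative clones had the 2 highest medians under each scaling, while the order of the other clones changed with it. On deposited values a change of at least 0.5 was measured for 14 genes in sAg1, 9 in sAg3, 14 in CD8bm1, 20 in 8uvmo-2 and 25 in 8uvmo-3, and after centring for 2, 2, 3, 8 and 16. In pairs of single clones, an alternative chosen after seeing the data, Hspa5, Hyou1, Xbp1, Sel1l, Syvn1, Herpud1 and Vimp were called with a smaller response in the IL13+ clone in all 4 pairs, against 0.765% of all probe sets. No gene was called with a larger one in all 4 pairs, against 0.867%. With 8uvmo-2 as the only IL13-negative clone the count of smaller responses was 12 (with sAg1) and 14 (with sAg3). No background share is given for a single pair.

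The number of clones limits every phenotype comparison. With the 10 group means in place of arrays, so that clones are the replicates, limma called 0 members in each of the phenotype comparisons and in the difference in activation after adjustment. At an unadjusted p under 0.05 it gave 3 higher (Hyou1, Xbp1 and Sel1l) and 1 lower (Wfs1) at rest, against 2.38% and 2.71% of all probe sets. After activation it gave 0 higher and 1 lower (Derl3), against 2.06% and 1.67%. The response was larger for 1 (Wfs1) and smaller for 15, against 2.5% and 2.19%. The smallest adjusted p of a member was 0.849, 1 and 0.758 in these comparisons. The activation comparison in that fit called 7 members higher and 1 lower after adjustment, with no background share given. Unadjusted, 23 were higher and 3 lower, against 61% and 14.1% of all probe sets. The condition that separate clones bear out a direction also sets the counts. Without it, 17 and 4 members were higher and lower with activation (29.5% and 21.1% of all probe sets), 26 and 4 at rest (17.9% and 15.1%) and 10 and 15 after activation (14.5% and 14.5%). The response to activation was then larger for 4 and smaller for 27 members (8.59% and 9.22%).

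Relative to the conventional clone CD8bm1, the dormant IL13+ clones had 9 genes called higher and 13 lower (24.3% and 35.1%). The shares were 16.8% and 16.9% of all probe sets, but 27.9% and 28.5% of those with a mean of at least 9. The activated IL13+ clones had 5 higher and 19 lower, against 12% and 11.7%, and 22.1% and 21.4% of probe sets with a mean of at least 9. The member medians were -0.10 and -0.24. Without the condition on clones the counts were 10 and 14 at rest (19.9% and 18.8% of all probe sets) and 6 and 21 after activation (14.5% and 13.5%). The lower genes after activation comprised all 4 disulfide isomerases, all 4 translocation and other genes, 5 of 10 degradation genes and 4 of 10 lumenal chaperones. Among them, Edem2 differed by -0.77 ± 0.057 (adjusted p = 2.34e-13), Pdia4 by -0.58 ± 0.063 (adjusted p = 1.84e-09) and Vimp by -0.57 ± 0.079 (adjusted p = 3.16e-07). Without sAg1 the lower genes numbered 5 at rest and 11 after activation, with no background share given for that fit. Hspa5 was at 13.57 to 13.68 in activated CD8bm1 and at most 13.42 in activated IL13+ arrays. With the group means as replicates, limma called 0 members in either state after adjustment (smallest adjusted p 0.363 and 0.467). At an unadjusted p under 0.05 it gave 2 higher (Dnajb9 and Dnajc3) and 0 lower at rest, against 2.93% and 5.18% of all probe sets. After activation it gave 1 higher (Dnajb9) and 2 lower (Hspa5 and Pdia3), against 2.29% and 2.84%.

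At rest the largest negative difference from CD8bm1 was in Sdf2l1, a cofactor of ER co-chaperones. Sdf2l1 was at 10.85, 11.28, 10.85 and 11.28 in CD8bm1 and at 9.22 to 9.95 in IL13+ arrays, a difference of -1.48 ± 0.11 (adjusted p = 7.57e-14). After activation it was at 10.79 to 11.07 against 9.66 to 10.89, so that the gap narrowed to -0.55 and the arrays overlapped. Edem2, a mannosidase-like degradation factor, was at 11.59, 11.46, 11.70 and 11.44 in dormant CD8bm1. Its mean was 11.44 ± 0.06 (SD, n = 3) in dormant sAg3 but 9.70 ± 0.11 (n = 3) in sAg1, so the difference of -0.98 ± 0.06 (SE; adjusted p = 1.04e-15) came mostly from sAg1 and was -0.11 without it. Pdia6 was at 12.86, 12.86, 12.86 and 12.83 in dormant CD8bm1, above every dormant IL13+ array, a difference of -0.72 ± 0.069 (adjusted p = 5.84e-11) that was -0.25 and not called without sAg1. In the opposite direction, Dnajc3, a co-chaperone and inhibitor of PERK, was at 10.62, 10.44, 10.29 and 10.53 in dormant CD8bm1 and at 11.69 to 11.96 in IL13+ arrays. The difference of 1.36 ± 0.073 (adjusted p = 2.65e-17) stood beside 0.37 after activation. Ern1 was at 9.39, 9.12, 9.72 and 9.12 in dormant CD8bm1 and at 9.98 to 10.49 in IL13+ arrays (difference 0.91 ± 0.095, adjusted p = 5.02e-10), but was not called after activation.

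A few members differed between single clones far more than between phenotypes or states. Clgn, which encodes the calnexin homologue calmegin known from testis, lay between 5.12 and 6.02 in every array of 8uvmo-2 and CD8bm1, near background, and between 10.10 and 12.12 in every array of sAg1, sAg3 and 8uvmo-3. Its difference from CD8bm1 was 6.08 ± 0.11 (adjusted p = 3.01e-31) at rest and 5.34 ± 0.1 (adjusted p = 4.86e-30) after activation, and the split passes through the IL13-negative clones. Dnajb9, the BiP co-chaperone ERdj4 that represses IRE1, was at 2.94, 2.66, 2.96 and 3.50 in dormant CD8bm1 and at 4.05, 4.05, 4.56 and 3.99 after activation. In all other groups it lay between 7.40 and 10.71, and its differences from CD8bm1 were 5.86 ± 0.15 (adjusted p = 8.16e-27) and 5.28 ± 0.14 (adjusted p = 4.01e-26). Since these CD8bm1 levels are near background, the size of such differences is only approximate. They are readings of probe sets, and a difference in sequence under the probes between clones, which would also lower a reading, was not tested. Eif2ak3 was at 10.63 to 10.96 in sAg3 in both states and at no more than 10.04 in any array of another clone.

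**Figure D5:**
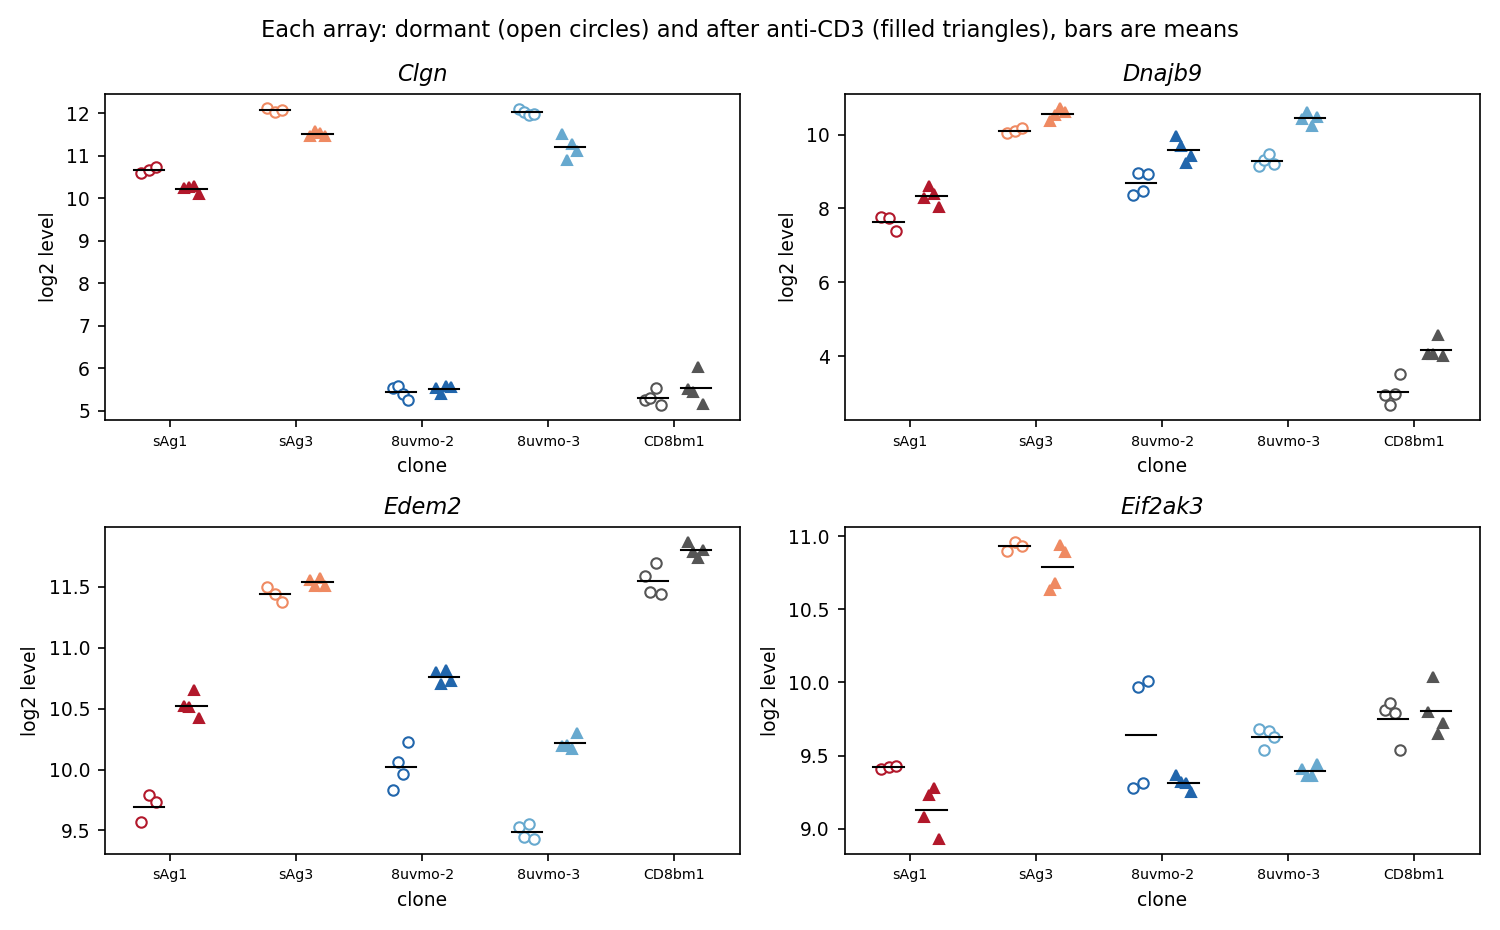
Log2 level (vertical axis) of Clgn, Dnajb9, Edem2 and Eif2ak3 on each array by clone (horizontal axis); open circles are dormant arrays, filled triangles activated arrays, and bars group means. Clgn is near background in 8uvmo-2 and CD8bm1, Dnajb9 in CD8bm1, and Eif2ak3 is highest in sAg3.

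Chromosomes moved as blocks in some clones, and these shifts touch members. Over the probe sets with a mean of at least 9, those on chromosome 12, where Sel1l, Pdia6 and Dnajb9 lie, had a median IL13+ minus IL13-negative difference of 0.33 at rest and 0.31 after activation. Those on chromosome 1, where Atf6 and Ppp1r15b lie, had medians of -0.19 and -0.27. Chromosome 8, where Herpud1, Calr and Clgn lie, had medians of 0.15 and 0.13, and chromosome 15, where Creld2 and Derl1 lie, -0.11 and -0.14. Chromosome 10 (Hsp90b1, Derl3 and Os9) had -0.13 and -0.12, chromosome 9 (Hyou1 and Manf) 0.14 and 0.06, and chromosome 14 (Dnajc3) 0.12 and 0.06. Against the mean of the other clones, chromosome 8 stood 0.36 higher in sAg3 in both states. In 8uvmo-3, chromosome 10 stood 0.26 and 0.29 higher, and chromosome 15 0.28 and 0.32. In the difference in activation the medians of the chromosomes named here lay between -0.06 and -0.02. The part of these shifts in the members' differences was not tested.

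The genes with an ERSE in their promoter were compared by count with the rest. Of the 9, 7 had a smaller response in the IL13+ clones and none a larger one (median -0.55). Of the 21 with a window and no ERSE, 10 had a smaller and 2 a larger response (median -0.43), and of the 7 without a window 5 had a smaller one (median -0.33). In the activation comparison over all clones, 2 of the 9, 4 of the 21 and 2 of the 7 were called higher, and 1 of the 21 lower. The medians there were 0.73, 0.36 and 0.44 on deposited values. The ERSE genes called with a smaller response were Hspa5, Hsp90b1, Creld2, Canx, Pdia6, Syvn1 and Derl3; Calr and Dnajc3 were not called.

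The other ER genes on a wider list, of which 77 of 82 were measured, were compared in the same way. The list covers further folding enzymes, translocon subunits, transport between ER and Golgi and the integrated stress response, which includes the branch downstream of PERK. Whether PERK or another input acted on the genes of that response was not tested. In the IL13+ clones 25 of the 77 were called higher at rest and 3 lower, with 8 higher and 17 lower after activation, and the response to activation was larger for 2 and smaller for 30. The medians were 0.22, -0.02 and -0.26. The background shares are those given for the members: 9.41% higher and 7.8% lower at rest, 7.65% and 6.54% after activation, and 5.25% larger and 5.45% smaller responses over all probe sets. Of the 10 genes listed under the integrated stress response, 5 were called higher at rest and 5 responded less. Atf4, a transcription factor of that response, ranged from 9.09 to 10.01 in dormant IL13+ and from 8.89 to 9.23 in dormant IL13-negative arrays. Activated arrays were at 9.94 to 10.26 (median 10.10) against 10.11 to 10.63 (median 10.34). Atf4 was higher at rest by 0.53 ± 0.061 (adjusted p = 4.98e-09), with group means of 9.97 in sAg3 but 9.19 in sAg1, against 9.12 for 8uvmo-2 and 8.97 for 8uvmo-3, and its response differed by -0.81 ± 0.083 (adjusted p = 2.62e-09). Ddit3, which encodes the ATF4 target CHOP, was at 8.87 to 8.99 against 8.20 to 8.80 at rest and at 8.06 to 8.66 against 8.64 to 9.31 after activation, so that its order reversed, and the difference in activation was -0.96 ± 0.14 (adjusted p = 3.43e-06). Chac1, a glutathione-degrading enzyme induced by ATF4, was at 7.69 to 9.54 (median 8.60) against 7.06 to 7.28 at rest, without overlap, a difference of 1.47 ± 0.11 (adjusted p = 2.47e-13); the means were 9.41 in sAg3 and 7.85 in sAg1. After activation Chac1 overlapped at 8.18 to 9.09 against 8.08 to 8.66, and the difference in activation was -1.25 ± 0.15 (adjusted p = 6.98e-08). Asns, asparagine synthetase and another ATF4 target, was at 10.62 to 11.98 against 10.22 to 10.60 at rest, without overlap (means of 11.93 in sAg3 and 10.74 in sAg1), and at 11.38 to 11.93 against 11.76 to 12.07 after activation. The Asns difference in activation was -1.29 ± 0.11 (adjusted p = 5.59e-11).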

How the data were processed

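Messenger RNA was measured on 38 Affymetrix arrays, with 100 ng of total RNA per array extracted with QIAGEN RNeasy and labelled with WT Plus, per the labels. The authors deposited log2 levels summarized per probe set; Partek and RMA appear in the submitters' processing notes, and how the arrays were normalized together is not given in the sources used here. The number of arrays limits the precision.

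Of 35556 probe sets, the 23410 with a gene name were tested; 21789 carry 1 symbol and only these stood for genes. Where a gene had several, the one with the highest mean was used (Dnajc3, Pdia4, Ppp1r15b, Sec61b and Ufm1). Sec61b has 3; whether the brightest also reads related sequences was not tested, and the mean of the 3 gave -0.45 in place of -0.48 for the difference in activation. Groups came from the labels. limma (version 3.58.1, R 4.3.3) fitted 1 mean per group over all arrays, with variances moderated along a mean trend, and Benjamini-Hochberg adjustment over all 23410. Contrasts weight clones equally; errors of differences are standard errors, those of group means standard deviations; tests are two-sided. The fit was tested on simulated data.

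The members and lists were chosen with earlier results of these data known. Values are printed for members with the largest difference among those called, up to 3 per direction and comparison, for 4 sensor genes, for up to 2 other ER genes per direction and for Atf4 and Ddit3; further members were chosen after their values were seen. Alternatives comprised other scalings, a minimum difference, a level filter, a replicate block, clone means as replicates, and leaving out arrays or clones.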

Additional observations from a re-analysis of the deposited data

Results flagged for a closer look

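Among the 22 members that the naming rule selects, 176 groups of 4 arrays were checked for an array far from the other 3, measured as its gap to the nearest array over the group's range; chance gives such an array in about 1 in 20 groups. It was found in 11 groups, most of them with narrow ranges. Activated sAg1 held 5 of them, each with a low array: Derl3 at 6.55 (others 6.66 to 6.68), Dnajc10 at 10.02 (others 10.10), Dnajc3 at 11.03 (others 11.37 to 11.39), Pdia4 at 11.58 (others 11.80 to 11.84) and Ssr1 at 11.52. For Dnajc10, Dnajc3 and Pdia4 the low array was replicate 4. That array was also low for Sdf2l1, at 9.66 (others 10.07 to 10.27). It was high for Chac1 at 9.09 (others 8.18 to 8.33) and Asns at 11.93 (others 11.38 to 11.56), the top of their activated IL13+ ranges. Activated 8uvmo-2 held a high array for Os9 at 11 (others 10.62 to 10.64) and for Pdia4 at 12.71 (others 12.31 to 12.37). CD8bm1 held a high activated array for Atf6 at 10.53 and for Dnajb9 at 4.56, and a low dormant array for Pdia6 at 12.83. Activated sAg3 held a low array for Hyou1 at 11.81. All of these arrays stayed in the values reported.

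The response to activation differed between IL13+ and IL13-negative clones by a test of the difference itself for 24 members, on the log2 scale with the IL13+ response minus the other. The values were -1.09 for Herpud1, -0.96 for Hyou1, -0.81 for Pdia6, -0.76 for Hspa5, -0.75 for Vimp, -0.74 for Derl3, -0.70 for Sel1l and -0.69 for Creld2. Smaller ones were -0.59 for Derl2, -0.56 for Xbp1, -0.55 for Manf, -0.55 for Syvn1, -0.53 for Pdia3, -0.48 for Pdia4, -0.48 for Sec61b, -0.43 for Dnajb11 and -0.42 for Derl1. The smallest were -0.38 for Hsp90b1, -0.34 for Ssr1, -0.33 for Sec61a1, -0.28 for Atf6 and -0.28 for Canx. Wfs1, at 0.72, and Dnajc10, at 0.63, had the opposite sign.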

How the results depend on the processing

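No called difference of a named gene changed sign under any alternative run. Counts of members are given here as higher and lower where they moved by more than 1.5 times; the cause was not tested unless stated. On deposited values alone activation called 21 higher and the difference in activation 4 higher; centring alone called 5 lower with activation; quantile normalization alone called 21 higher and 2 lower. A level filter at a mean of 7, before scaling, gave 18 higher with activation. No share of all probe sets is given for the level filter, the minimum differences or the 4 larger responses on deposited values. Those counts therefore describe the members only. A minimum difference of 0.5 left 6 higher at rest, 0 higher and 2 lower after activation, 13 smaller responses, 4 lower than CD8bm1 at rest, and 2 higher and 5 lower than CD8bm1 after activation. A minimum of 1 left 3 and 0 with activation, 1 and 0 at rest, 0 and 0 after activation, 0 larger and 1 smaller response, 3 and 1 against dormant CD8bm1, and 2 and 0 against activated CD8bm1. Without the condition on clones the counts were 17 and 4 with activation, 26 and 4 at rest, 10 and 15 after activation, and 4 larger responses. Clone means as replicates gave 0 in all 5 comparisons between phenotypes, where fewer samples enter. Only dormant 8uvmo-2 arrays 1 and 3 gave 0 lower at rest.

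Leaving out sAg1 gave 28 higher and 2 lower at rest, 12 higher after activation, 4 larger responses, 5 lower than dormant CD8bm1, and 8 higher and 11 lower than activated CD8bm1. Leaving out sAg3 gave 2 lower with activation, 2 lower at rest, 21 lower after activation, 1 larger response and 3 higher than activated CD8bm1. Leaving out 8uvmo-2 gave 25 higher and 2 lower at rest and 5 higher after activation. Leaving out 8uvmo-3 gave 4 lower at rest and 6 higher and 12 lower after activation, and leaving out CD8bm1 gave 2 lower with activation; it gives no value for the comparisons with CD8bm1. Smaller responses numbered 18 to 27 when any 1 clone was left out. The condition on clones is looser with fewer clones, and no shares of all probe sets are given beside these counts. In pairs of single clones, chosen after seeing the data, sAg1 and 8uvmo-2 gave 0 larger and 12 smaller responses, sAg3 and 8uvmo-2 gave 14 smaller and sAg3 and 8uvmo-3 gave 4 larger.

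With each array left out in turn, activation gave 7 to 8 higher and 1 to 1 lower, rest 11 to 14 and 1 to 1, the activated state 2 to 3 and 7 to 8, and the response 2 to 4 larger (4 without activated sAg1 replicate 1 or 4) and 21 to 24 smaller. Against CD8bm1 the ranges were 7 to 9 and 11 to 13 at rest, and 4 to 6 and 17 to 20 after activation. With the replicate number as a block, the counts were 8 and 1, 13 and 1, 3 and 7, 2 and 22, 9 and 13, and 5 and 19, as without it. Across 18 pairs of arrays with the same number, deviations correlated at -0.236 to 0.268, with 7 over 0.1. Arrays with different numbers were not compared, so these values cannot tell whether the numbers pair the samples. Fitting only the groups compared gives no separate value for activation, which uses all groups. Probe sets near background, such as Derl3, and the CD8bm1 levels of Clgn and Dnajb9 limit what their differences mean.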

Other observations

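Among the other ER genes, Kdelr3, a receptor that returns chaperones from the Golgi, separated the clones. It was at 8.38 to 9.33 in dormant and 9.67 to 9.74 in activated CD8bm1, and at 5.12 to 5.52 and 5.74 to 6.04, near background, in the IL13-negative clones. The IL13+ arrays ranged widely, from 5.10 to 7.97 at rest and from 5.78 to 8.73 after activation, with a dormant mean of 5.32 ± 0.30 (SD, n = 3) in sAg1 against 7.82 ± 0.21 (n = 3) in sAg3. Dormant sAg1 was thus at the level of the IL13-negative clones, which had means of 5.30 and 5.27, and no size is given for the difference between these phenotypes. Against CD8bm1 the IL13+ clones differed by -2.18 ± 0.13 (SE; adjusted p = 3.14e-16) and -2.31 ± 0.12 (adjusted p = 2.10e-17), sizes that are approximate since sAg1 is near background. Atf3, a stress-induced transcription factor listed with Atf4 under the integrated stress response, was at 6.51 to 7.18 in dormant and 7.31 to 8.04 in activated CD8bm1. It was at 7.82 to 9.50 and 9.26 to 10.79 in the IL13+ clones, differences of 1.83 ± 0.14 (adjusted p = 2.07e-13) and 2.32 ± 0.13 (adjusted p = 1.35e-16) with no overlap of arrays.

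Activation raised Atf6b, the paralogue of the sensor Atf6, by 1.20 ± 0.037 (adjusted p = 7.52e-25), and Creb3l2, an ER-anchored transcription factor, by 1.19 ± 0.055 (adjusted p = 3.66e-20), in all 5 clones. Creb3l2 was lower in the IL13+ clones than in CD8bm1 by -1.21 ± 0.11 (adjusted p = 1.46e-11) at rest and -1.64 ± 0.1 (adjusted p = 2.38e-15) after activation. Ero1l, the oxidase that recharges disulfide isomerases, fell with activation by 0.71 ± 0.095 (adjusted p = 1.76e-08), but hardly in 8uvmo-3, where its mean was 10.92 ± 0.40 (SD, n = 4) at rest and 10.89 ± 0.09 (n = 4) after activation. Its dormant 8uvmo-2 arrays 1 and 3 were at 11.12 and 11.82, against 12.79 in both arrays 2 and 4. Herpud2 fell by 0.55 ± 0.051 (adjusted p = 3.98e-12).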
